A study of Mus musculus with 14 samples.

Results

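The hepatic genes of alcohol, aldehyde and retinol oxidation were examined in mice that received the olive triterpene erythrodiol. The group was formed by name, as every gene of the expression table whose symbol begins with Adh, Aldh, Rdh or Dhrs followed by a digit. It comprised 47 of the 17552 genes of the table, namely 6 alcohol dehydrogenases (Adh), 21 aldehyde dehydrogenases (Aldh), 12 retinol dehydrogenases (Rdh) and 8 members of the Dhrs series. The choice used symbols only and no measured value.

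Alcohol dehydrogenases oxidise alcohols to aldehydes, and aldehyde dehydrogenases carry the aldehydes on to acids. Retinol dehydrogenases and the related Dhrs enzymes belong to the short-chain dehydrogenase family, and many of them interconvert retinol and retinal. Not all Dhrs enzymes do so, and Dhrs7b acts in ether lipid synthesis. Some aldehyde dehydrogenases of the Aldh1a series oxidise retinal to retinoic acid. The liver is the main site where ethanol is oxidised and where vitamin A is stored, and many of these enzymes also clear aldehydes that arise from lipids and amino acids.

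Liver RNA of male C57BL/6 mice deficient in Apoe, the gene of apolipoprotein E, was sequenced after a Western diet without addition (control) or with erythrodiol at 10 mg/kg (erythrodiol). Each group had 7 libraries, and each library was made from RNA pooled from a few mice. The mice were given as 8 weeks old, which cannot be read as their age at the end of feeding. The labels state 8 weeks of feeding, whereas the methods of the study give another duration. All mice of both groups carried the Apoe deficiency and ate the Western diet, so neither group shows the genes in a wild-type or chow-fed liver. Transcripts of Apoe were still counted in both groups, with 9403 control and 8293 erythrodiol reads.

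Gene values were deposited as 1 estimated read count per gene and group, summed over the 7 libraries, with totals of 122889032 in the control and 124686047 with erythrodiol. The 2 groups therefore gave 1 value each for every gene, no spread between libraries could be computed, and no test was made. Intervals below are exact 95% binomial intervals of the ratio of 2 counts, which cover counting error only and not the differences between mice or pools. Levels are given as CPM, the count of a gene per 1000000 counts of its group, or as CPM per kilobase of gene length where genes are compared with each other. A member was described as higher or lower when its ratio was at least 1.3-fold and it had at least 100 counts in the groups together, which 40 of the 47 members had. In whole-liver RNA, fewer cells of a type and less RNA per cell cannot be told apart. Control libraries ranged from 34856340 to 55244294 clean reads and erythrodiol libraries from 47669656 to 48058606, so the deeper control libraries weigh more in the control sums. Between 64.3% and 81.4% of the control reads and between 73.0% and 76.1% of the erythrodiol reads mapped to genes.

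As a whole, these enzymes made up 1.03% of the control and 1.11% of the erythrodiol counts, a ratio of 1.08 (1.08 to 1.08). On this measure all genes together have a ratio of 1 by the scaling. The median of the ratios of single genes, a different measure, was 1.12. Most of this RNA came from few genes. Adh1, Aldh2, Aldh1a1 and Rdh7, which are the 4 members of highest count, together held 57.6% of the control and 58.3% of the erythrodiol counts of all members. The plot of levels by class shows that the members spanned several orders of magnitude, and that the order of the genes within each class was much the same in both groups.

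**Figure D1:**
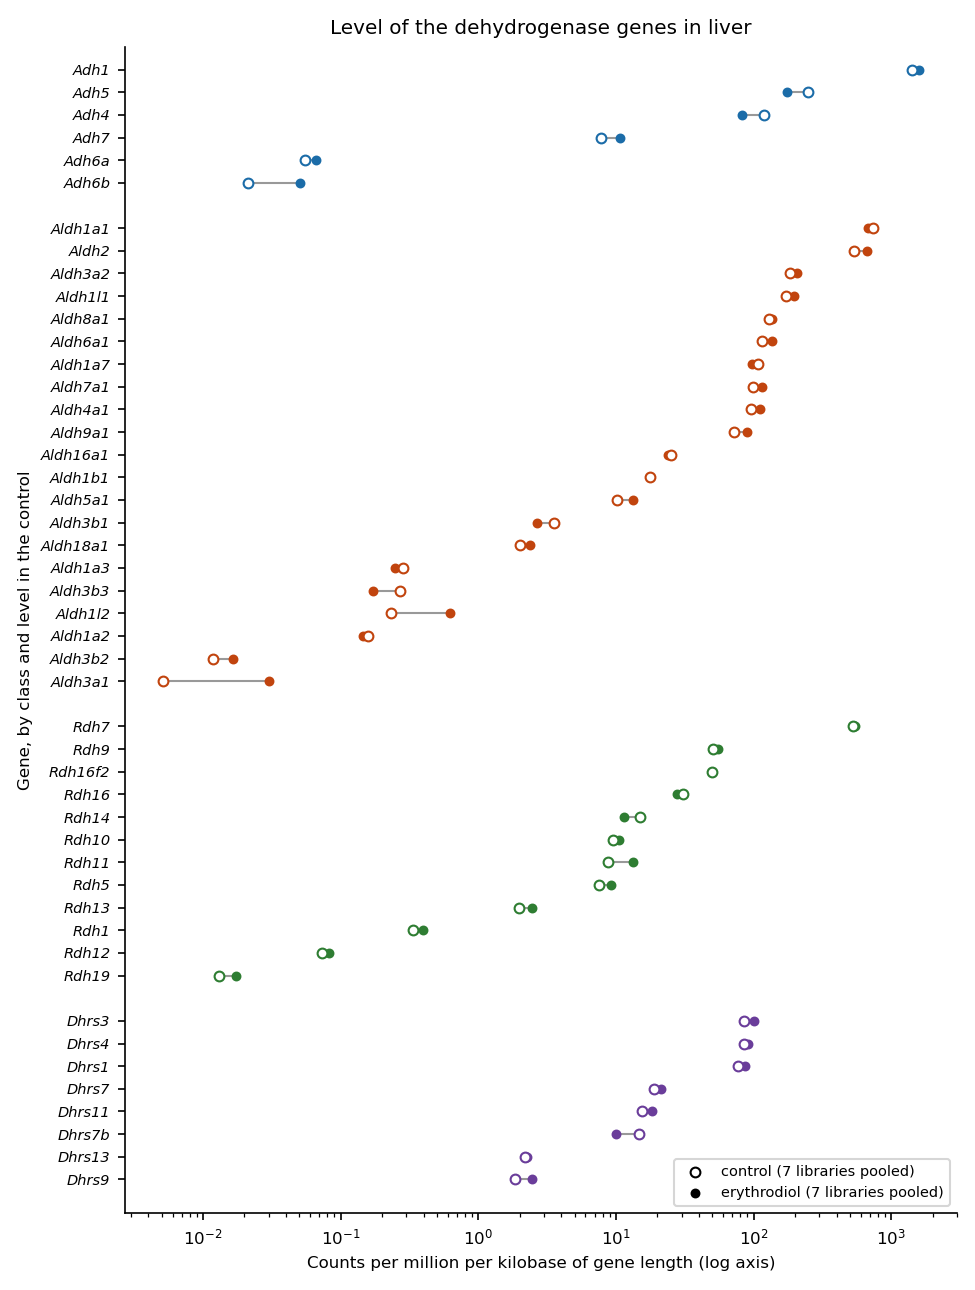
Level of each of the 47 genes as CPM per kilobase of gene length on a log axis, by class and in the order of the control. Open circles are the control and filled circles erythrodiol, each pooled over 7 libraries; Adh1 lies highest, at 1405 and 1595, and Aldh3a1 lowest in the control, at 0.0051.

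The ratio of a gene varied with its length. Over the 13291 genes with at least 100 counts, the median log2 ratio of erythrodiol to control was 0.16, which is 1.12-fold, and the medians of 20 length classes ran from -0.30 in genes of up to 914 bases to 0.35 in genes of 7427 bases or more. The ratio of each member was therefore given both as scaled by the totals of the groups and relative to the median of the genes of like length. With totals, 69.2% of all genes past 1.3-fold were higher with erythrodiol, and relative to genes of like length 27.6% were. The members lay between 1242 and 5997 bases, where the class medians ran from -0.02 to 0.27.

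**Figure D2:**
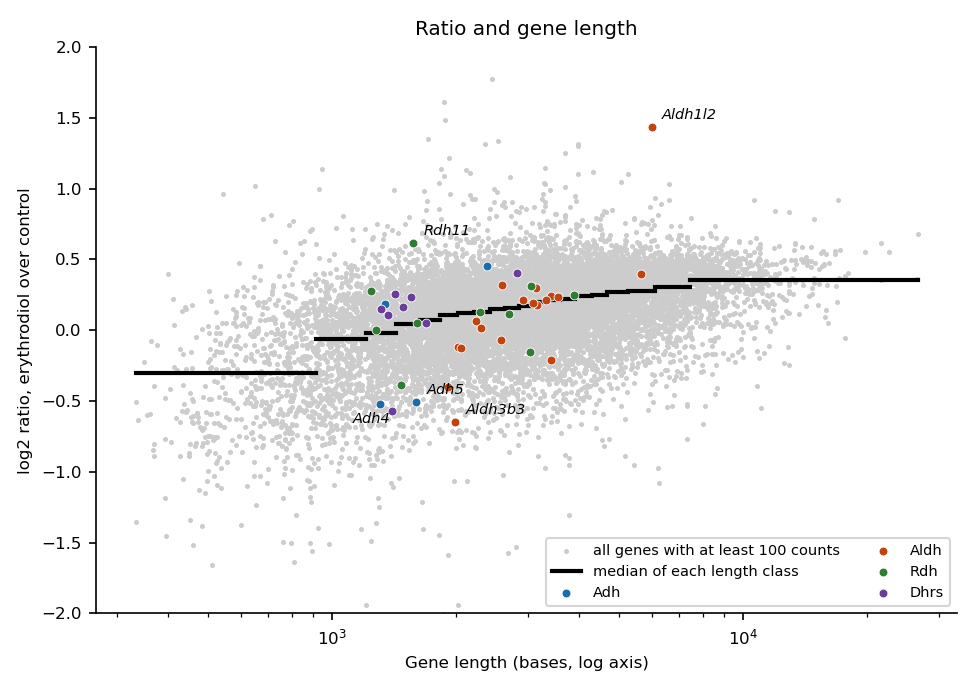
Log2 ratio of erythrodiol over control, scaled by totals, against gene length in bases on a log axis. Grey points are all genes with at least 100 counts, of which 11 lie outside the axis, black bars are the medians of the 20 length classes, which run from -0.30 to 0.35, and coloured points are the 40 members.

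When scaled by totals, 5 members were higher with erythrodiol, which were Aldh1l2, Rdh11, Adh7, Dhrs9 and Aldh5a1. These are 12.5% of the 40 members, where 16.3% of all genes were higher. Another 6 members were lower, which were Aldh3b3, Dhrs7b, Adh4, Adh5, Aldh3b1 and Rdh14, or 15.0% against 7.27% of all genes. Relative to genes of like length, 2 members were higher, Aldh1l2 and Rdh11, or 5.0% against 3.97% of all genes. By that measure 7 members were lower, the same 6 and Aldh1a3, or 17.5% against 10.4% of all genes. The other 31 members lay between -0.32 and 0.33 relative to genes of like length. The median log2 ratio of the 40 members was 0.16 with totals and 0.02 relative to genes of like length, beside 0.16 and 0 for all genes.

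**Figure D3:**
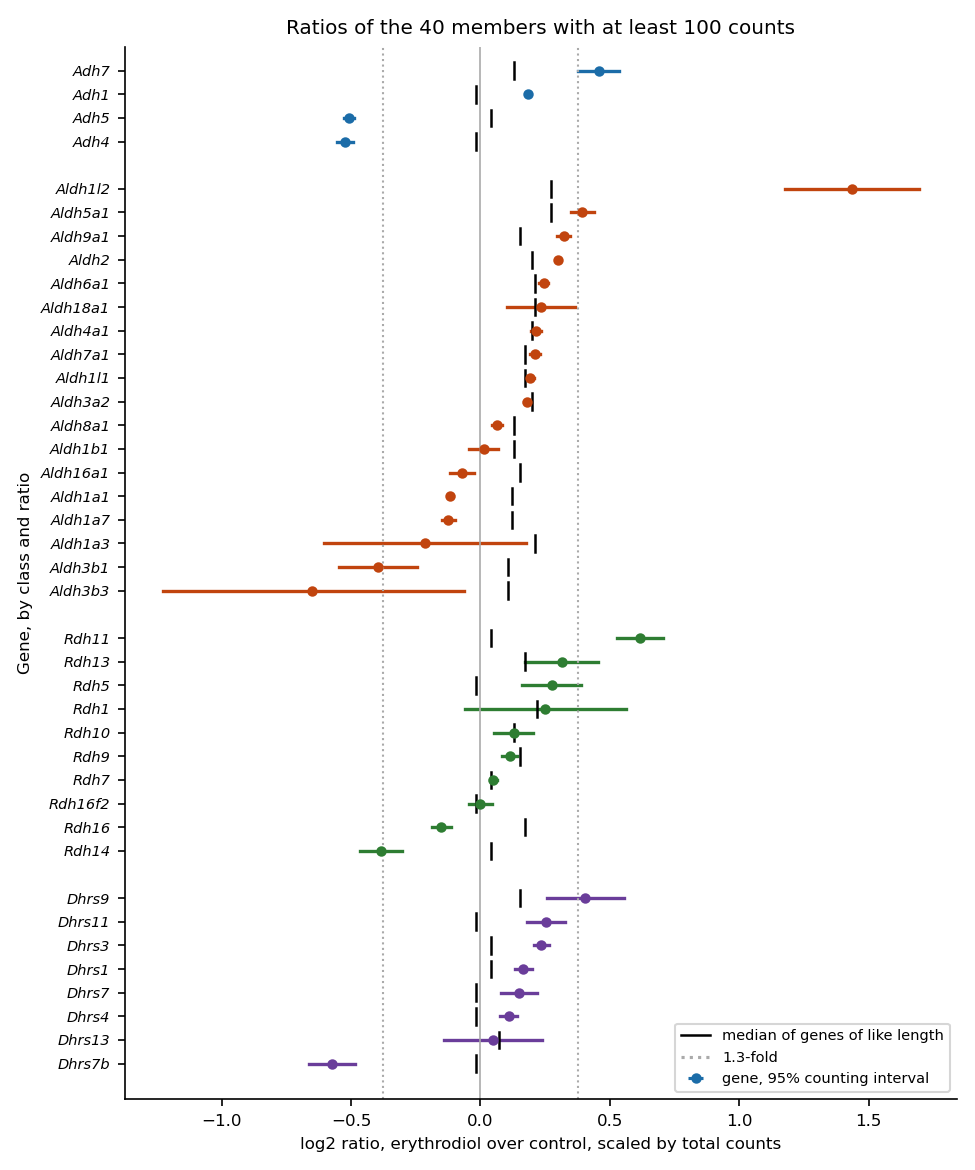
Log2 ratio of erythrodiol over control, scaled by totals, of the 40 members with at least 100 counts, ordered by class and ratio. Points carry 95% counting intervals, black ticks are the medians of genes of like length and dotted lines mark 1.3-fold; Aldh1l2, at 1.43, lies farthest to the right and Aldh3b3, at -0.65, farthest to the left.

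The alcohol dehydrogenases diverged within 1 gene cluster. All 6 Adh genes lie on chromosome 3 of GRCm38 between 138198064 and 138455499, in the order Adh7, Adh1, Adh6a, Adh6b, Adh4 and Adh5. Adh1, the classical enzyme of ethanol oxidation, which also acts on retinol, was the member of highest level, with 232710 control and 268054 erythrodiol counts. Its ratio was 1.14 (1.13 to 1.14), within the 1.3-fold limit. It held 76.7% of the Adh reads of the control and 83.8% of those of erythrodiol.

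Adh5 and Adh4, which are neighbours with 4516 bases between them, were both lower. Adh5 encodes the glutathione-dependent formaldehyde dehydrogenase, which also reduces S-nitrosoglutathione. It had 49328 control and 35201 erythrodiol counts, a ratio of 0.703 (0.694 to 0.713). Adh4, a liver enzyme that oxidises retinol and longer alcohols, had 19123 control and 13500 erythrodiol counts, a ratio of 0.696 (0.681 to 0.711). Corrected for length, the log2 ratios were -0.55 for Adh5 and -0.51 for Adh4. The expression of Adh7, an enzyme known from the stomach with high activity on retinol, lay on the other side, with 2280 control and 3175 erythrodiol counts. Its ratio was 1.37 (1.3 to 1.45) with totals, while the log2 ratio relative to genes of like length was 0.33, within the limit. Adh6a, with 9 and 11 counts, and Adh6b, with 7 and 17, were too low for a ratio to be read.

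The Adh class summed to 2469 control and 2566 erythrodiol CPM, a ratio of 1.04 (1.03 to 1.04), which turned below 1 when the median of all genes was set to 0. The median log2 ratio of its 4 counted genes was -0.16. The sum and the median differ in direction because Adh1 holds most of the counts, and without Adh1 the log2 ratio of the sum was -0.47.

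The bases before an annotated start of these 4 genes are shown because genes of 1 cluster had ratios with totals on both sides of 1. A link between these bases and the ratios was not tested. Sequences are those of the RefSeq promoter table for GRCm38.p6, plus strand, from 250 bases before the annotated start and ending before the first annotated exon base in the window. Capitals mark matches on either strand to TATAAA of the TATA box, CCAAT of the CCAAT box and GGGCGG of the GC box. They also mark TTGCNNAA, a form of the site of C/EBP factors. A match is one of sequence only, and whether it works as such a site was not tested. The Adh1 run is chr3:138277335-138277493, the Adh4 run chr3:138415247-138415455, the Adh5 run chr3:138436950-138437199 and the Adh7 run chr3:138217523-138217759. The start used for Adh7 lies inside the annotated span of the gene, which begins at 138198064.
Adh1: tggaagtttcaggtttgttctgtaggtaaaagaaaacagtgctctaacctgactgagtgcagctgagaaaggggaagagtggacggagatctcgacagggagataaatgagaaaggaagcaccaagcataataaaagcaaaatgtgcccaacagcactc
Adh7: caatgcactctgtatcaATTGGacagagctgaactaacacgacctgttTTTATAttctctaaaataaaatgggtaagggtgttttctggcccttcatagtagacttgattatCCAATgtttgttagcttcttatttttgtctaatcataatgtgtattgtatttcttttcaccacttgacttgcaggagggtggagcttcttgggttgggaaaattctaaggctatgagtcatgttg
Adh4: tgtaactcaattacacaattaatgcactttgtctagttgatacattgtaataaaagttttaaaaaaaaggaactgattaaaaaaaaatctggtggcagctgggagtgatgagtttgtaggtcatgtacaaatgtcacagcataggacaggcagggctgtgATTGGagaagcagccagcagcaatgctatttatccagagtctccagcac
Adh5: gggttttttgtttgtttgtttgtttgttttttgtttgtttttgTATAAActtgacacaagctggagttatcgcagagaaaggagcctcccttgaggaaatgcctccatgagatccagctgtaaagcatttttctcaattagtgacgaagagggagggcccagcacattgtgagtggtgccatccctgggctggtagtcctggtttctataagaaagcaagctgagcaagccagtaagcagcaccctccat

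No match overlapped another in these windows. The Adh1 window held no match, and that of Adh4 held 1 CCAAT read on the minus strand. That of Adh5 held 1 TATAAA at 207 bases before the start. The Adh7 window held 2 CCAAT and 1 TATAAA, the latter read on the minus strand at 202 bases before the start. It also held 1 TTGCNNAA at 16 bases before the start, which runs past the end of the printed bases and is not capitalised there. Of the 47 members, 37 had a promoter in that table, and Adh6b, Aldh1a3, Aldh1l2, Aldh2, Aldh3a1, Aldh3b2, Aldh7a1, Rdh10, Rdh13 and Rdh19 had no entry. Within the 250 bases, TATAAA was found in 18.9% of the members and 13.0% of the 27025 promoters of the table, CCAAT in 51.4% and 34.5%, GGGCGG in 24.3% and 33.0%, and TTGCNNAA in 10.8% and 9.55%. The median GC content was 53.2% in the members and 52.0% in all promoters.

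Among the aldehyde dehydrogenases, those of highest level differed little between the groups. Aldh1a1, the cytosolic enzyme of retinal oxidation, had 184653 control and 172893 erythrodiol counts, a ratio of 0.923 (0.917 to 0.929). Aldh2, the mitochondrial enzyme that clears acetaldehyde, had 207130 control and 258765 erythrodiol counts, a ratio of 1.23 (1.22 to 1.24). In CPM per kilobase, Aldh1a1 stood at 739 and 682, and Aldh2 at 538 and 662, so that the distance between both genes was smaller with erythrodiol. Relative to genes of like length, the log2 ratio of Aldh1a1 was -0.24 and that of Aldh2 was 0.10, both within the limit. Aldh3a2, which oxidises fatty aldehydes, had 71345 control and 82077 erythrodiol counts and a relative log2 ratio of -0.02. Aldh1l1, the cytosolic 10-formyltetrahydrofolate dehydrogenase, had 65178 and 75469 counts and one of 0.02.

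The Aldh1a genes and Aldh8a1 were read as 1 group, and its 4 counted genes lay below the median of genes of like length. Of all 13291 genes with at least 100 counts, 6640 lay above that median. The relative log2 ratios were -0.24 for Aldh1a1, -0.25 for Aldh1a7, a close relative of Aldh1a1, -0.06 for Aldh8a1 and -0.42 for Aldh1a3. Aldh1a7 had 27027 control and 25167 erythrodiol counts, and Aldh8a1, which also acts in tryptophan breakdown, had 35828 and 38007. Aldh1a3, on chromosome 7 from 66390892 to 66427477, was the only one past the limit, but it rested on 120 control and 105 erythrodiol counts, and its ratio with totals was 0.862 (0.657 to 1.13). Aldh1a2, with 44 and 41 counts, was below the minimum. The sum of the 5 genes was 2015 CPM in the control and 1894 CPM with erythrodiol.

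The enzymes of amino acid and amine breakdown or synthesis stayed close to genes of like length. This group holds Aldh4a1 and Aldh18a1 of proline metabolism, Aldh5a1 of GABA breakdown, Aldh6a1 of valine breakdown, Aldh7a1 of lysine breakdown and Aldh9a1, which acts in carnitine synthesis. All 6 had relative log2 ratios above 0, from 0.01 in Aldh4a1 to 0.17 in Aldh9a1, and none was past 1.3-fold by that measure. Of all 13291 genes with at least 100 counts, 6640 were above 0 by it. Aldh8a1, which also acts in amino acid breakdown, was grouped with the Aldh1a genes and lay at -0.06. The intervals of Aldh4a1 and Aldh18a1 reached below 0. Aldh6a1 had 48052 control and 57744 erythrodiol counts, Aldh4a1 38907 and 45758, Aldh7a1 35860 and 42134, Aldh9a1 22881 and 29002, and Aldh18a1, the lowest of the group, 871 and 1040. Of the Aldh4a1 windows of 100 bases, 27.5% also occur in Gm21969. Aldh5a1, with 7007 control and 9338 erythrodiol counts, was past the limit with totals at 1.31 (1.27 to 1.35). In the genes of its length the median log2 ratio was 0.27.

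The highest ratio of all counted members was that of Aldh1l2, the mitochondrial counterpart of Aldh1l1 in folate metabolism. It lies on chromosome 10 from 83487447 to 83534146 and had 171 control and 469 erythrodiol counts, a ratio of 2.70 (2.26 to 3.24). Relative to genes of like length its log2 ratio was 1.16. Its level remained low, at 0.232 CPM per kilobase in the control and 0.627 with erythrodiol, against 172 and 196 for Aldh1l1. Other enzymes of folate metabolism were chosen after the value of Aldh1l2 was seen. Of 5 genes of the mitochondrial branch, 1 was higher and 0 lower relative to genes of like length, or 20% and 0%, beside 3.97% and 10.4% of all genes. The higher gene was Mthfd2, with 346 and 566 counts and a relative log2 ratio of 0.57. Shmt2, the mitochondrial serine hydroxymethyltransferase, had 21465 and 29393 counts and a relative log2 ratio of 0.30. None of 7 genes of the cytosolic branch was higher or lower by that measure. With totals, 2 of the 5 and 1 of the 7 were higher and 0 lower, beside 16.3% and 7.27% of all genes. The median relative log2 ratio was 0.054 in the mitochondrial and 0.055 in the cytosolic branch.

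Of the 3 Aldh3b genes, whose products act on lipid aldehydes, Aldh3b1 and Aldh3b3 were lower and Aldh3b2 was under the minimum of counts. Aldh3b1, on chromosome 19 from 3913491 to 3930898, had 831 control and 640 erythrodiol counts, a ratio of 0.759 (0.684 to 0.842). Aldh3b3, its neighbour from 3958732 to 3972419, had 65.8 and 42.5 estimated counts, and its ratio of 0.636 had a wide interval of 0.427 to 0.957. Aldh3b2 had 3.16 and 4.48 counts, and 14% of its sequence windows of 100 bases are shared with Aldh3b3, so reads of these genes could be exchanged in the estimate. Aldh3a1, which is not abundant in the normal liver, had 1 control and 6 erythrodiol counts, a ratio of 5.91 with an interval of 0.717 to 272. Aldh16a1, with 7916 and 7643 counts, and the mitochondrial Aldh1b1, with 4971 and 5087, were within the limit, at relative log2 ratios of -0.22 and -0.12.

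The Aldh class summed to 6175 control and 6829 erythrodiol CPM, a ratio of 1.11 (1.10 to 1.11). This ratio turned below 1 when the median log2 ratio of all genes was set to 0. The median log2 ratio of its 18 counted genes was 0.19 with totals and -0.00 relative to genes of like length.

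Among the retinol dehydrogenases, the gene cluster on chromosome 10 showed little difference. It spans 127759726 to 127889247 and holds Rdh1, Rdh9, Rdh16, Rdh19, Rdh16f2 and Rdh7, enzymes that oxidise retinols and, in part, steroids. Rdh7 was by far the highest, with 104867 control and 110175 erythrodiol counts, a ratio of 1.04 (1.03 to 1.04). It held 69.8% of the Rdh reads of the control and 70.0% of those of erythrodiol. Rdh9 had 16835 and 18467 counts, Rdh16f2 had 7896 and 8007, and Rdh16 had 11531 and 10537. Of the 5 counted genes of the cluster none was past 1.3-fold by either measure, and the relative log2 ratios ran from -0.32 in Rdh16 to 0.03 in Rdh1. Rdh9 shares 63.5% of its windows of 100 bases with other genes, nearly all with Rdh16f1, so that its count is uncertain.

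The retinal reductases outside the cluster went in different directions. Rdh11, which reduces retinal to retinol, lies on chromosome 12 from 79174233 to 79191855 and had 1690 control and 2629 erythrodiol counts. Its ratio was 1.53 (1.44 to 1.63), and its log2 ratio relative to genes of like length was 0.58. By level per kilobase it ranked after Rdh10 and Rdh14 in the control and before both with erythrodiol. Rdh14, of a like activity, lies on the same chromosome from 10390748 to 10395562 and had 2706 control and 2103 erythrodiol counts, a ratio of 0.766 (0.723 to 0.811). In CPM per kilobase, Rdh11 stood at 8.74 and 13.4 and Rdh14 at 14.9 and 11.4, so the gene of higher level was Rdh14 in the control and Rdh11 with erythrodiol. Rdh10, which oxidises retinol on the way to retinoic acid, had 2692 and 2985 counts and lay at the median of genes of like length. Rdh5, known from the visual cycle of the eye, had 1155 and 1418 counts, and Rdh13, a mitochondrial enzyme, 744 and 938. Their relative log2 ratios were 0.29 and 0.14, and Rdh5 shares 14.9% of its windows with Bloc1s1. Rdh12, a photoreceptor enzyme, had 15 and 17 counts. The Rdh class summed to 1223 control and 1263 erythrodiol CPM, a ratio of 1.03 that turned below 1 when the median of all genes was set to 0, and the median log2 ratio of its 10 counted genes was 0.12 with totals and 0.01 relative to genes of like length.

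Of the 8 Dhrs genes, 7 had log2 ratios above 0 with totals, and 1 was lower past the limit. Of all 13291 genes with at least 100 counts, 9462 had log2 ratios above 0 with totals. The log2 ratios of Dhrs4, Dhrs7 and Dhrs13 turned below 0 when the median of all genes was set to 0. Dhrs3, a retinal reductase that acts together with Rdh10, had 16350 control and 19530 erythrodiol counts, a ratio of 1.18 (1.15 to 1.2). Dhrs4, a peroxisomal reductase of retinal and other carbonyls, had 14206 and 15554 counts, and Dhrs1 had 14067 and 16005. The relative log2 ratios of Dhrs3, Dhrs4, Dhrs1, Dhrs7 and Dhrs11 ran from 0.12 in Dhrs1 to 0.27 in Dhrs11. Dhrs7 had 3085 and 3468 counts, Dhrs11 2680 and 3239, and Dhrs13, the closest to genes of like length at -0.02, 453 and 475. Dhrs9, with 638 and 857 counts, was past the limit with totals at 1.32 (1.19 to 1.47) and within it relative to genes of like length, at 0.25. Dhrs7b, an enzyme of ether lipid synthesis, was the exception, with 2540 control and 1733 erythrodiol counts. It lies on chromosome 11 from 60830631 to 60858423, and its ratio was 0.672 (0.632 to 0.715). The Dhrs class summed to 440 control and 488 erythrodiol CPM, a ratio of 1.11 that turned below 1 when the median of all genes was set to 0. The median log2 ratio of the class was 0.16 with totals and 0.15 relative to genes of like length.

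**Figure D4:**
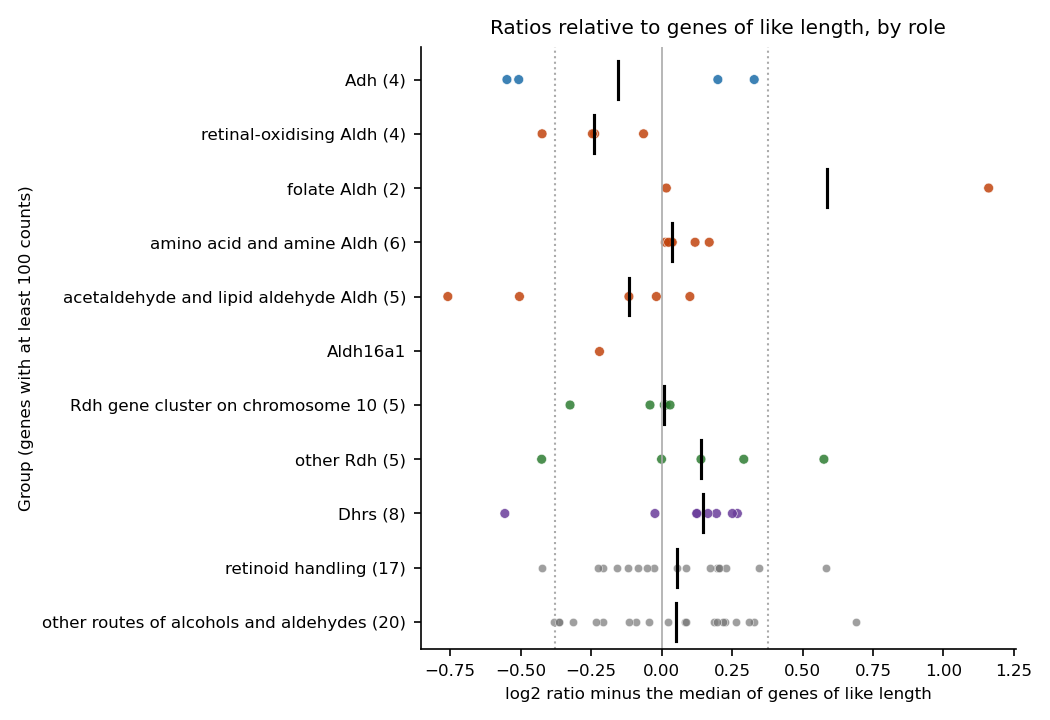
Log2 ratio of erythrodiol over control minus the median of genes of like length, for genes with at least 100 counts grouped by role, with the number of genes in brackets and the median of each group as a black bar. Dotted lines mark 1.3-fold. The 4 genes labelled retinal-oxidising Aldh are Aldh1a1, Aldh1a7, Aldh1a3 and Aldh8a1, where Aldh1a7 is included as a relative of Aldh1a1. They lie left of 0, from -0.42 to -0.06, and the 6 Aldh genes of amino acids and amines right of 0, from 0.01 to 0.17. Of all 13291 genes with at least 100 counts, 6640 would lie right of 0.

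Other genes of retinoid handling were mostly within the limit. Of 26 genes listed for transport, storage, receptors and breakdown, 23 were in the table, 17 had at least 100 counts, 1 was higher relative to genes of like length and 1 was lower, or 5.88% each, beside 3.97% and 10.4% of all genes. With totals, 2 were higher and 0 lower, or 11.8% and 0%, beside 16.3% and 7.27% of all genes. The higher gene by length was Cyp26b1, which degrades retinoic acid, with 538 control and 984 erythrodiol counts and a relative log2 ratio of 0.58. The lower gene was Lrat, which esterifies retinol for storage, with 2719 and 2488 counts and a relative log2 ratio of -0.42. Its ratio with totals was 0.902, within the limit. Ttr and Rbp4, the plasma carriers of retinol, and Retsat, a retinol saturase, had the highest levels, and their relative log2 ratios were 0.20, 0.35 and 0.20. Cyp26a1, a further enzyme of retinoic acid breakdown, had 234 and 219 counts.

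Other routes by which alcohols and aldehydes are removed were read in the same way. Of 21 genes, 20 had at least 100 counts. Relative to genes of like length, 1 was higher and 1 lower, or 5.0% each, beside 3.97% and 10.4% of all genes. With totals, 5 were higher and 2 lower, or 25% and 10%, beside 16.3% and 7.27% of all genes. Gstp1, a glutathione transferase, was the higher gene by length, with 221390 and 293236 counts and a relative log2 ratio of 0.69, and Akr1b7, an aldose reductase relative with 65 and 50 counts, was the lower. Cyp2e1, the microsomal ethanol-oxidising cytochrome, had 800408 control and 996935 erythrodiol counts, a ratio of 1.23 (1.22 to 1.23). Cat, which encodes catalase, had 299293 and 423296 counts, a ratio of 1.39 (1.39 to 1.40) and a relative log2 ratio of 0.33. In 4 other families chosen by symbol, the numbers lower relative to genes of like length were 0 of 4 flavin monooxygenases (Fmo), 1 of 15 carboxylesterases (Ces), 6 of 15 aldo-keto reductases (Akr) and 1 of 14 hydroxysteroid dehydrogenases (Hsd3b, Hsd11b and Hsd17b), and the numbers higher were 0, 0, 0 and 1.

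Markers of the cell types of the liver were examined as well. The sum of 9 hepatocyte markers had a ratio of 1.01, with Alb, the gene of albumin, at 80551 of 106629 CPM in the control and a ratio of 0.962. The median log2 ratio of the 9 was 0.18, and Tdo2 was the lowest, with a ratio of 0.658. The 6 markers of Kupffer cells, the resident macrophages, were all lower past 1.3-fold, both with totals and relative to genes of like length. Of all genes, 7.27% and 10.4% were lower by these measures. The sum of the Kupffer cell markers was 869 CPM in the control and 535 CPM with erythrodiol. Of 5 counted markers of bile duct cells, 3 were lower by both measures, and the sums of all 6 listed were 117 and 79.3 CPM. The sums of 6 neutrophil markers were 10.0 and 4.90 CPM. Only S100a9, with 702 and 329 counts, and S100a8, with 411 and 183, had at least 100 counts. Of the others, Retnlg had 42 and 36, Elane 24 and 14 and Mpo 13 and 3, while Ly6g, with 38.98 and 45.45, lay on the other side. Markers of stellate cells and sinusoidal endothelial cells had ratios of their sums of 1.03 and 1.05, and those of pericentral and periportal hepatocytes 1.2 and 1.15. Markers of pancreatic acinar tissue and skeletal muscle summed to 15.0 and 1.00 CPM in the control and 10.5 and 0.457 CPM with erythrodiol, and those of mesothelial cells to 10.8 and 9.78 CPM. Most of the acinar sum was Cela1, with 1574 and 1113 counts, while Ctrb1, with 8 and 42 counts, and Cpa1, with 2 and 15, lay on the other side. None of the Kupffer cell or bile duct cell markers was at 0 in either group. The part of these cells in the ratios of Adh4, Adh5, Aldh3b1, Aldh3b3, Dhrs7b, Rdh14 and Aldh1a3 was not tested.

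Of the 47 members, 12 had new coding transcripts in the deposited annotation, with 25 such transcripts in all. Among all 17552 genes, 4995 had them, with 11540 in all, so the members do not stand out. Adh7 had 7, Rdh5 had 5 and Dhrs3 had 3. No level was given for them. Of the 16 splicing events in the deposited tables of events, which the authors had filtered on the difference between groups, none lay in a member. With 16 events among 17552 genes most genes have none, so this says little about the splicing of the members.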

How the data were processed

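The authors sequenced poly(A) RNA of liver pools from both ends, with 7 libraries per group; the labels gave the groups. The authors mapped clean reads with HISAT, assembled new transcripts with StringTie and Cufflinks, called variants with GATK, and used Bowtie2 and RSEM for the counts of genes; versions are not given in the sources used here. The authors deposited 1 expected count per gene and group, which adds up its libraries without normalization. For each library they deposited counts of clean reads and mapping rates in percent. The table also holds the authors' own log2 ratio, p-value, q-value and direction, which were not used.

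The design had foreseen that counts per library might exist. As they did not, no test was made. Expected counts, of which those of 11 members were not whole to within 0.005, were divided by the totals of the groups. From each log2 ratio the median of the genes in its class of length, of 20 classes over genes with at least 100 counts, was subtracted. Of the table, 5 rows without a symbol held 0.0248% of the counts. Ratios have exact (Clopper-Pearson) 95% intervals. Gene positions were taken from RefSeq (GRCm38.p6) by gene number for all 47 members, and shared windows of 100 bases from GENCODE transcripts. Genes named are the 5 of highest level per length in each class of the control, all past 1.3-fold relative to genes of like length, and, in the lists of other genes, those past it with the 3 of highest level; others were named after their values were seen. The members, lists and markers were chosen with earlier results of these data known. Whether counting used strand was not stated, so reads of overlapping genes on opposite strands cannot be told apart. The computation was tested on simulated data. Software was scipy 1.17.1, pandas 2.3.3, numpy 2.4.6 and matplotlib 3.10.9 under Python 3.11.15, and edgeR 4.0.16 under R 4.3.3 for the factors of TMM scaling of rounded counts only. Alternatives were other scalings, minimum counts, length classes, a pseudocount of 1 and other limits of fold.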

Additional observations from a re-analysis of the deposited data

Results flagged for a closer look

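The control library of replicate 3 stood apart in the share of its reads that mapped to genes, which was 64.33%, where the nearest of the other 6 control libraries had 74.39%. A rule of this kind marks about 1 group in 20 by chance. Since counts of genes were given for the pooled groups only, the members' ratios could not be computed without this library.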

How the results depend on the processing

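The scaling of the groups set how many members were higher. With the median of all genes at 0, with totals without the 50 highest genes, and with TMM, 2 members were higher past 1.3-fold in place of 5 with totals, while 6 were lower in each. Over all genes, 21.4%, 39.0% and 22.7% of those past the limit were then higher, in place of 69.2%. With no filter on counts, 9 members were higher with totals and 5 relative to genes of like length, and with a minimum of 1000 counts 1 was higher by the latter measure. At 1.5-fold, 2 members were higher and 1 lower with totals, and 1 higher and 1 lower relative to genes of like length. The median log2 ratios under median, top-50 and TMM scaling were -0.32, -0.26 and -0.32 for Adh, 0.024, 0.087 and 0.029 for Aldh, -0.042, 0.022 and -0.036 for Rdh, and -0.0054, 0.058 and -8.1e-05 for Dhrs. Relative to genes of like length they were -0.0025 for Aldh and 0.013 for Rdh. With a minimum of 10 counts or none, the Adh median was 0.23, since Adh6a and Adh6b then enter. The log2 ratios of the summed levels with median and TMM scaling were -0.11 and -0.10 for Adh, -0.017 and -0.012 for Aldh, -0.12 and -0.11 for Rdh, and -0.011 and -0.0056 for Dhrs. Without the member of highest count they were -0.47 for Adh, 0.082 for Aldh and 0.11 for Dhrs. Of the 11 members past the limit with totals, 8 stayed past it under every scaling and with a pseudocount of 1, and Adh7, Dhrs9 and Aldh5a1 did not. Of the 9 past it relative to genes of like length, 8 stayed past it under every other definition of like length, and Aldh1a3 did not. None of these changed sign. Of all 40 members, 8 changed sign across scalings and 4 across definitions of like length, all of them within the limit.

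No paired analysis was possible because gene counts were given for the pooled groups and not for the libraries, and for the same reason none was left out. Differences between pools are not measured by these values, and the 7 members under 100 counts, Adh6a, Adh6b, Aldh1a2, Aldh3a1, Aldh3b2, Rdh12 and Rdh19, have counting intervals that include a ratio of 1.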
